A study of Rattus norvegicus with 4 samples.

Results

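Succinate dehydrogenase is the enzyme that 3-nitropropionic acid (3-NP) inactivates, and its 4 subunit genes Sdha, Sdhb, Sdhc and Sdhd were followed in rat cochlear lateral wall exposed to 3-NP. Their probe sets were found by annotated symbol and not by signal, although the genes were chosen with earlier results of these data known. The array design used at day 1 holds 5 probe sets for these 4 genes, among 15866 probe sets outside the controls and 10411 named genes. Annotation of the other design, used at day 3, pairs 0 of its 15276 probe sets with any of the 4, so their signals are known at day 1 alone.

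The series has 4 groups of 1 array each: 3-NP at day 1, saline at day 1, 3-NP at day 3 and saline at day 3. All came from female Sprague-Dawley rats of 8 to 10 weeks and 180 to 210 g, with no genetic alteration named. In the left ear the niche of the round window was filled with 300 mM 3-NP in saline, or with saline alone in controls, and the right cochlea was destroyed in both. The tissue was collected 1 or 3 days later and is described both as the upper basal turn and as the second turn with the stria vascularis left out. The labels do not say how many animals one array holds. With 1 array per group there is no replicate error, and no p-value or standard error is given.

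Succinate dehydrogenase, also called complex II, sits in the inner mitochondrial membrane and belongs to both the citric acid cycle and the respiratory chain. It oxidises succinate to fumarate and hands the electrons to ubiquinone. 3-NP resembles succinate and binds irreversibly at the succinate site of the enzyme. The lateral wall, whose fibrocytes and stria vascularis recycle potassium and keep up the endocochlear potential, depends heavily on mitochondrial energy. The arrays report transcripts, not enzyme protein or activity.

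All 4 subunits are nuclear genes on different chromosomes. Their promoters, from 250 bases before to 50 bases after the annotated start, are shown because the subunits build one enzyme and their day 1 ratios, given further on, lay on one side of the median gene. The sequences are RefSeq's for the GRCr8 rat assembly, found for 4 of 4 genes. Sdha is at chr1:30764303-30764602 on the plus strand, Sdhb at chr5:158547684-158547983 on the plus strand, Sdhc at chr13:86097976-86098275 on the minus strand, and Sdhd at chr8:59850592-59850891 on the minus strand. Each runs 5′ to 3′ along its gene, and capitals mark the motif matches described next.
Sdha: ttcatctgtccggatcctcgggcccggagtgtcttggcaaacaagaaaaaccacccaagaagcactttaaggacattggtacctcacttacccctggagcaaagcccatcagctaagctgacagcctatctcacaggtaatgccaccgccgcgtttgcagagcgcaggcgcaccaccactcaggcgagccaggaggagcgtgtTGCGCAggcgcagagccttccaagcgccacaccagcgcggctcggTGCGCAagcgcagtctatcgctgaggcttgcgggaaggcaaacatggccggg
Sdhb: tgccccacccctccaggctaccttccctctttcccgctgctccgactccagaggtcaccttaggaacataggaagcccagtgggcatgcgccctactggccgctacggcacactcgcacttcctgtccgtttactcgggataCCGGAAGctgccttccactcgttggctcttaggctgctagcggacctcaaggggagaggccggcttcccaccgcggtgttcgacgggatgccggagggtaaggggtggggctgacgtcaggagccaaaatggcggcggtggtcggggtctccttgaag
Sdhc: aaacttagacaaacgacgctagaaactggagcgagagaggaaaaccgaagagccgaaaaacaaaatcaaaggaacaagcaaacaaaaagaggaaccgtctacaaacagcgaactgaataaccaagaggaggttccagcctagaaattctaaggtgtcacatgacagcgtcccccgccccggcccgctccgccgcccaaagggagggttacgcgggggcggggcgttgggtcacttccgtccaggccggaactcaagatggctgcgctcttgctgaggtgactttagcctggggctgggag
Sdhd: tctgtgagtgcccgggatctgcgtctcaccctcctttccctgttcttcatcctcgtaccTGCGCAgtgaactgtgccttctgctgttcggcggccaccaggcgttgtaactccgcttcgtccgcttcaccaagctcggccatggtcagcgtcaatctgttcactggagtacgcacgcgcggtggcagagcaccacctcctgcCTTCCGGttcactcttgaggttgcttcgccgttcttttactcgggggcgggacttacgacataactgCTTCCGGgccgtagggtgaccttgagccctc

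Searched on both strands were TGCGCA, a half-site of the palindromic NRF1 motif, and CCGGAAG, a core of motifs bound by ETS family factors such as GABP. Both factors are known regulators of nuclear genes for mitochondrial proteins. Sdha held 2 NRF1 half-sites, which began 47 and 2 bases upstream of the start, and no match to the ETS core. Sdhb held 1 match to the ETS core, 108 bases upstream. Sdhd held 2 matches to it on the opposite strand, 48 bases upstream and 19 bases downstream, and 1 NRF1 half-site 191 bases upstream. In Sdhc neither string of letters was found in this window. Of 33469 rat promoters of this length, 7.24% held the NRF1 half-site and 8.75% the ETS core, and the 2 motifs did not overlap in these 4 sequences. All 4 held more CpG than the median promoter, with 21 in Sdha, 21 in Sdhb, 20 in Sdhc and 24 in Sdhd, against a median of 7. Between 75.8% (Sdhc) and 82.0% (Sdhd) of promoters held fewer. Both motifs contain a CpG, and their shares among promoters of like CpG content are not given here. A match describes the sequence and was not tied to binding in this tissue.

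At day 1 the signals of Sdha, Sdhb and Sdhc differed by less than 10% between the arrays as deposited, and those of Sdhd by up to 22.4%. Signals are MAS5 intensities, which can be compared between arrays for one probe set but not between probe sets. Relative to the median gene, however, each of the 5 probe sets was lower in the 3-NP array, by between 19.3% and 42.8%. None of the 4 genes was 2-fold apart.

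Sdha encodes the flavoprotein subunit, which carries FAD and the site where succinate and 3-NP bind. Its probe set 1367678_at had a signal of 945 in the 3-NP array and 880 in the saline array. As deposited this is 7.37% higher in 3-NP. The 3-NP array was brighter as a whole, however, with a median signal of 60.7 against 44.9 in saline, and the median gene had a log2 ratio of 0.44. Ratios are therefore given relative to the median gene, which takes that gene as equal in both arrays. On this scale Sdha had a log2 ratio of -0.34, or 20.8% below saline.

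Sdhb encodes the iron-sulfur subunit, which passes electrons from the flavin to the membrane. Probe set 1372123_at gave 1212 in the 3-NP array and 1143 in the saline array, 6.04% higher as deposited. Its log2 ratio relative to the median gene was -0.35, or 21.8% below saline. Sdha and Sdhb form the catalytic head of the enzyme, and their log2 ratios differed by 0.018.

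Sdhc encodes the large cytochrome b subunit, one of the pair of membrane anchors that hold the heme and the ubiquinone site. Probe set 1371311_at gave 827 in the 3-NP array and 756 in the saline array, 9.39% higher as deposited and the largest such gain among the 5 probe sets. Its relative log2 ratio was -0.31, or 19.3% below saline. The ratios of Sdha, Sdhb and Sdhc thus lay within 0.045 of each other on the log2 scale, a spread that no centring can change.

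Sdhd encodes the small cytochrome b subunit, the other anchor, and was the lowest of the 4. It has 2 probe sets, both built on the same cDNA record. The brighter, 1388294_at, gave 597 in the 3-NP array and 770.0 in the saline array, and was 22.4% lower in 3-NP even as deposited. Relative to the median gene its log2 ratio was -0.81, or 42.8% below saline. The dimmer, 1371296_at, gave 377 in the 3-NP array and 382 in the saline array, which is 1.33% lower in 3-NP as deposited and -0.46 on the relative log2 scale. Both Sdhd probe sets were lower than those of the other subunits, and their mean was -0.63.

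**Figure D1:**
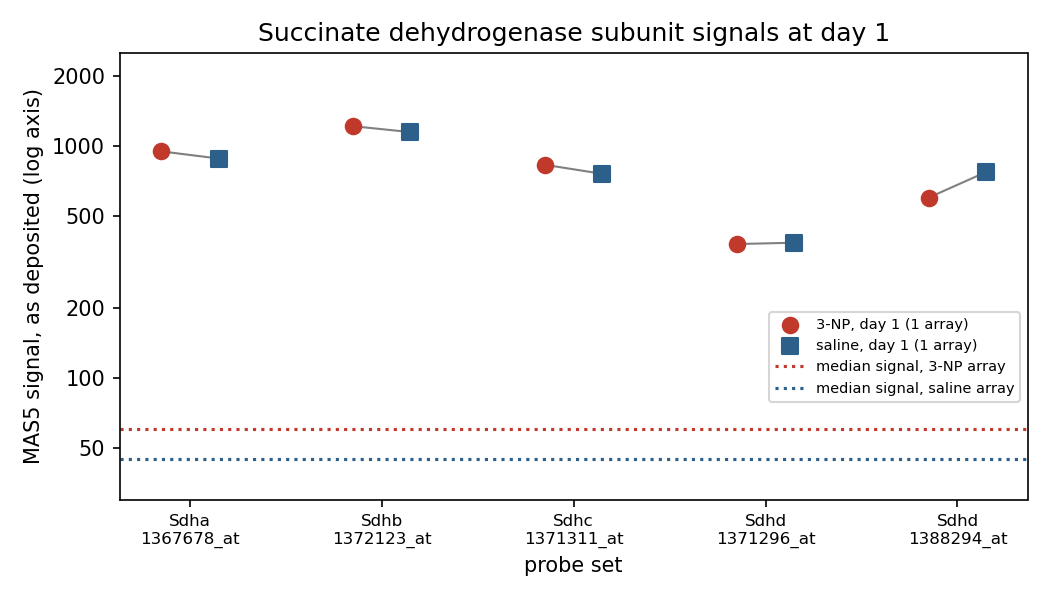
MAS5 signal as deposited (log axis) of the 5 succinate dehydrogenase probe sets at day 1, in the 3-NP array (red circles) and the saline array (blue squares), 1 array each. Dotted lines mark the median signal of each array. Signals are slightly higher in 3-NP for Sdha, Sdhb and Sdhc, near equal for Sdhd 1371296_at and lower in 3-NP for Sdhd 1388294_at, whereas the median of all probe sets is higher in 3-NP.

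How much of this lies beyond technical spread can be judged only between probe sets, not between animals. Over 744 genes with more than 1 measured probe set, the log2 ratio of one probe set had an SD of 0.35 at day 1. Sdhd 1388294_at lay 2.29 such SDs below the median gene and Sdhd 1371296_at 1.30. Sdha lay 0.956, Sdhb 1.01 and Sdhc 0.879 SDs below it. The differences among the 5 probe sets were smaller still against that spread: the largest of the 10 pairwise differences, between Sdhc and Sdhd 1388294_at, was 0.496, and 0 of 10 exceeded the SD of a difference between 2 probe sets of a gene, 0.498. The 2 Sdhd probe sets differed by 0.35, and 45.6% of the 744 genes had a larger difference between their probe sets. The position of Sdhd below the other subunits was therefore within the spread between probe sets. That spread pools genes of all brightness, and a spread for probe sets as bright as these was not computed. The rat annotation also lists the pseudogenes Sdhc-ps1 and Sdhd-ps2, and whether their transcripts add to these signals was not tested.

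The rank of a signal within its array gives each probe set a place, not a transcript level. In the 3-NP array the 5 probe sets were brighter than between 89.8% and 97.8% of all probe sets outside the controls, and in the saline array brighter than between 93.2% and 98.4%. Each of the 5 held a lower rank in the 3-NP array, and a rank does not depend on how the arrays are scaled. For Sdhd 1371296_at 89.8% of probe sets were dimmer in the 3-NP array and 93.2% in saline, and for Sdhd 1388294_at 94.3% in 3-NP and 97.3% in saline. For Sdhb the shares were 97.8% in 3-NP and 98.4% in saline. Each signal was at least 17.2 times the floor set for dim probe sets. Among the brightest of 4 equal groups of measured genes, to which the subunits belong, the median relative log2 ratio was 0.006.

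Read against all genes, the 4 subunits stood in the lower part of the distribution but not at its edge. A difference of 2-fold or more relative to the median gene was seen for 7.76% of 6533 measured genes upwards and for 6.47% downwards, and for 0 of 4 subunit genes in either direction. At 1.5-fold, 16.6% of genes were lower and 17.1% higher. Among the subunits 1 of 4 was lower by that much, Sdhd by its brighter probe set, and 0 were higher. By construction 50% of genes lie below the median gene, and all 4 subunits did. The median of the 4 was -0.35 and that of all measured genes 0. Lower ratios than that of Sdhd 1388294_at were held by 9.90% of measured genes, and lower ratios than that of Sdhc by 30.0%. As deposited, 23.1% of genes were lower in 3-NP, and Sdhd was the 1 subunit among them.

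**Figure D2:**
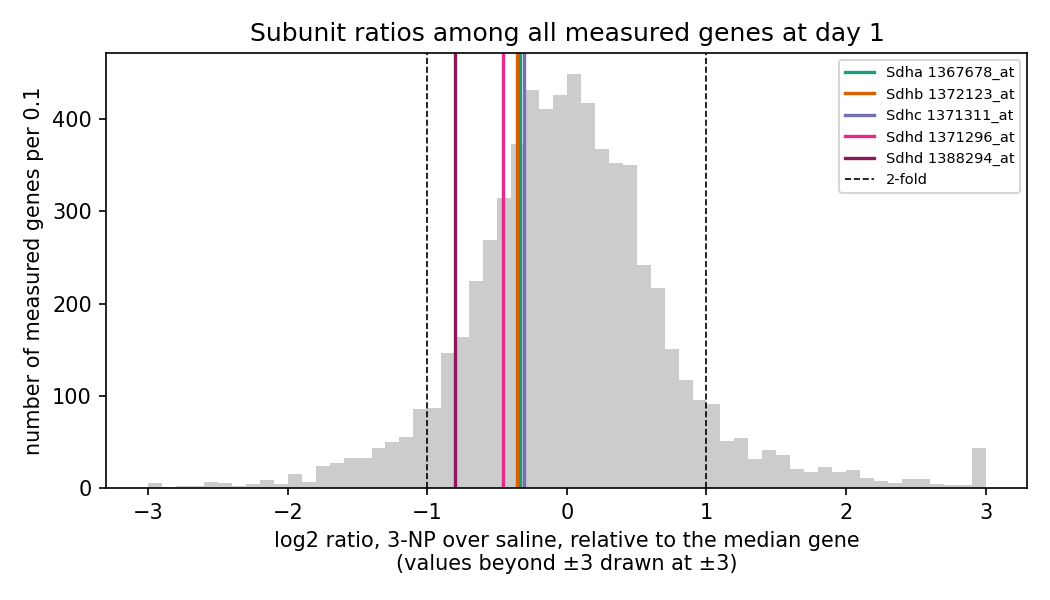
Histogram of the log2 ratio of 3-NP over saline relative to the median gene for 6533 measured genes at day 1 (grey, number of genes per 0.1), with vertical lines at the 5 succinate dehydrogenase probe sets and dashed lines at 2-fold. The subunit lines fall between -0.81 and -0.31, left of the centre and inside the 2-fold lines.

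The choice of centring decided the sign for Sdha, Sdhb and Sdhc, whose signals were higher in 3-NP as deposited and lower relative to the median gene. Under the other 7 ways of centring, normalizing or flooring the signals, their log2 ratios stayed between -0.40 and -0.23. Sdhd 1388294_at was below 0 under all 9 settings, including the values as deposited, and ranged from -0.85 to -0.37. Sdhd 1371296_at was also below 0 in all 9, from -0.50 to -0.019. Changing the floor alone could hardly move probe sets this bright, so the 9 settings are not separate checks. The 100 probe sets that both array designs carry for normalization had a median log2 ratio of 0.48 as deposited at day 1, close to that of the median gene.

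**Figure D3:**
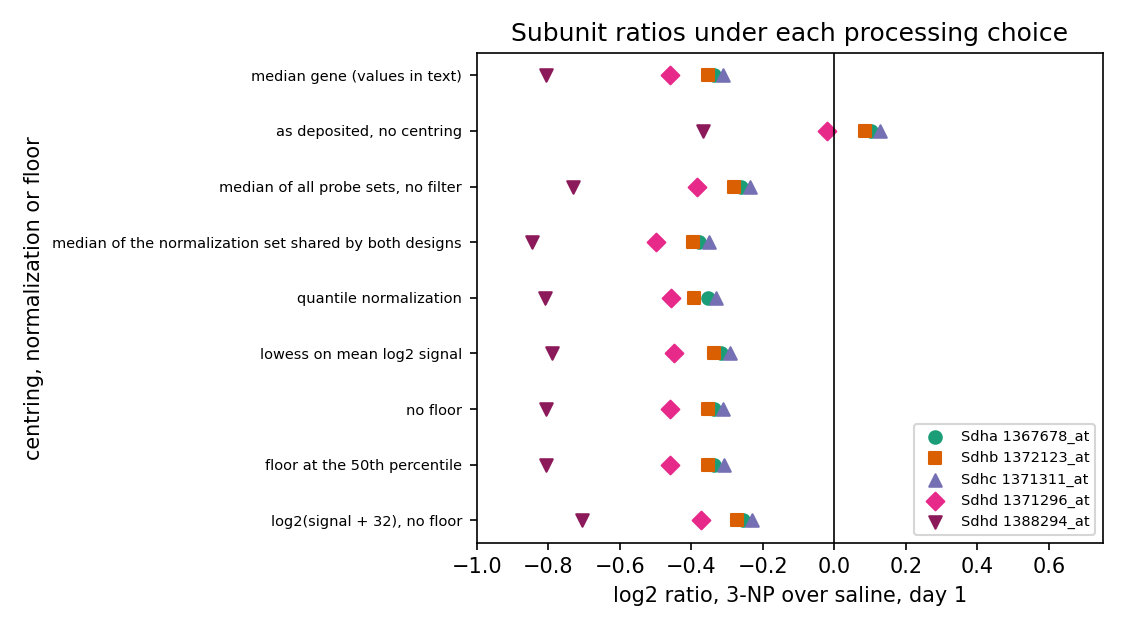
Log2 ratio of 3-NP over saline at day 1 for the 5 succinate dehydrogenase probe sets (coloured symbols) under 9 ways of centring, normalizing or flooring the signals, 1 per row. The symbols keep their order, with Sdhd lowest in each row, and those of Sdha, Sdhb and Sdhc are right of 0 in the row of values as deposited alone.

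Complex II assembly factors, which mature the subunits and join them, went both ways at day 1. Sdhaf1, which helps to insert iron-sulfur clusters into Sdhb, had 528 in the 3-NP array and 237 in the saline array, a relative log2 ratio of 0.71. Sdhaf4, which binds flavinylated Sdha on its way to Sdhb, had 50.4 in the 3-NP array and 84.7 in the saline array, a relative log2 ratio of -1.19. It was the 1 of 4 factors that was 2-fold lower, beside 6.47% of all measured genes. The factor that adds FAD to Sdha, Sdhaf2, was at -0.28, and Sdhaf3, which works with Sdhaf1 on Sdhb, at -0.25. The 3 genes Sdhaf2, Sdhaf3 and Sdhaf4 were dim, with signals of 50.4 to 76.5 in 3-NP and 51.1 to 84.7 in saline. The list median was -0.27, near that of the subunits, but it turned to 0.22 when the gene had to pass the filter in both arrays. That filter left Sdhaf1 and Sdhaf2 alone, since the 3-NP signals of Sdhaf3 (58.0) and Sdhaf4 (50.4) were below that array's median of 60.7.

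The subunit ratios were like those of the rest of the respiratory chain. Of 70 measured nuclear genes for complexes I, III, IV and V, 62 lay below the median gene, with a median of -0.35, the same as for complex II at this precision. Sdhb had 35 of these genes below it and 35 above, Sdha 36 below and 34 above, and Sdhc 39 below and 31 above. Sdhd 1388294_at had 7 below and 63 above. By complex, the medians were -0.45 for 34 genes of complex I, -0.46 for 8 of complex III, -0.21 for 12 of complex IV and -0.38 for 16 of complex V. At least 2-fold lower were 2 of the 70, beside 6.47% of all measured genes, and 0 were 2-fold higher, beside 7.76%. The 2 were Ndufab1 of complex I, on the cut-off at -1.0 (656 in 3-NP and 968 in saline), and Cox7a1 (-1.28). Cox7a1 is a complex IV subunit of heart and skeletal muscle. Uqcr11 (-0.83) was the lowest of complex III and Atp5f1e (-0.89) of complex V, both near Sdhd. The highest were Ndufa7 (0.20), Cyc1 (0.21), Cox5a (0.13) and Atp5if1, the inhibitor of ATP synthase (0.34), above every Sdh probe set. As deposited, 30 of the 70 were below 0. With 1 array per group no test of a difference between complex II and the other complexes was possible.

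The 12 other citric acid cycle genes measured had a median of -0.18, above each Sdh probe set, with 8 below the median gene. Cs, citrate synthase, was highest at 0.16, and Idh2, the NADP-linked isocitrate dehydrogenase of mitochondria, lowest at -0.74. Succinyl-CoA synthetase, the step before complex II that yields succinate, had its subunit genes Suclg1 at -0.13, Sucla2 at -0.41 and Suclg2 at -0.72. In this list 0 of 12 genes were 2-fold apart, beside 7.76% of all measured genes upwards and 6.47% downwards.

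Genes that supply or carry succinate were below the median gene in 6 of 6 measured cases, of 8 on the array. Lowest was Oxct1, the ketone body enzyme that releases succinate, with 146 in the 3-NP array and 404 in the saline array, a relative log2 ratio of -1.91. Aldh5a1, which turns succinic semialdehyde into succinate, was at -0.94, with dim signals of 33.8 in 3-NP and 47.9 in saline. Slc25a10, the mitochondrial carrier that exports succinate and malate, was at -0.35, near Sdhb. The list median was -0.57, and Suclg1, Suclg2 and Sucla2 are in this list too.

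Other routes of electrons into ubiquinone included genes with far lower ratios than the Sdh subunits. Prodh, proline dehydrogenase, had 56.5 in the 3-NP array and 166 in the saline array, a relative log2 ratio of -1.995. For a dimmer Prodh probe set both arrays were at the floor. Gpd2, the mitochondrial glycerol 3-phosphate dehydrogenase, was at -1.33 by its brighter probe set. A dimmer Gpd2 probe set, whose saline signal was at the floor, was at 0.17 as a bound and so did not bear this out. Etfdh, which brings in electrons from fatty acid and amino acid oxidation, was at -1.29. Etfa and Etfb, which feed Etfdh and do not reduce ubiquinone themselves, were at -0.64 and -0.57. Sqor, the sulfide oxidase of mitochondria, was at 0.11. In all, 3 of 6 genes were 2-fold lower and 0 higher, beside 6.47% and 7.76% of all measured genes. The 3 lower genes, Prodh, Gpd2 and Etfdh, had 3-NP signals below that array's median of 60.7. They passed the filter through the saline array alone, where they were higher, so this count rests on the filter. The list median was -0.96, but it was -0.57 with the filter in both arrays and also with no filter on dim genes.

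**Figure D4:**
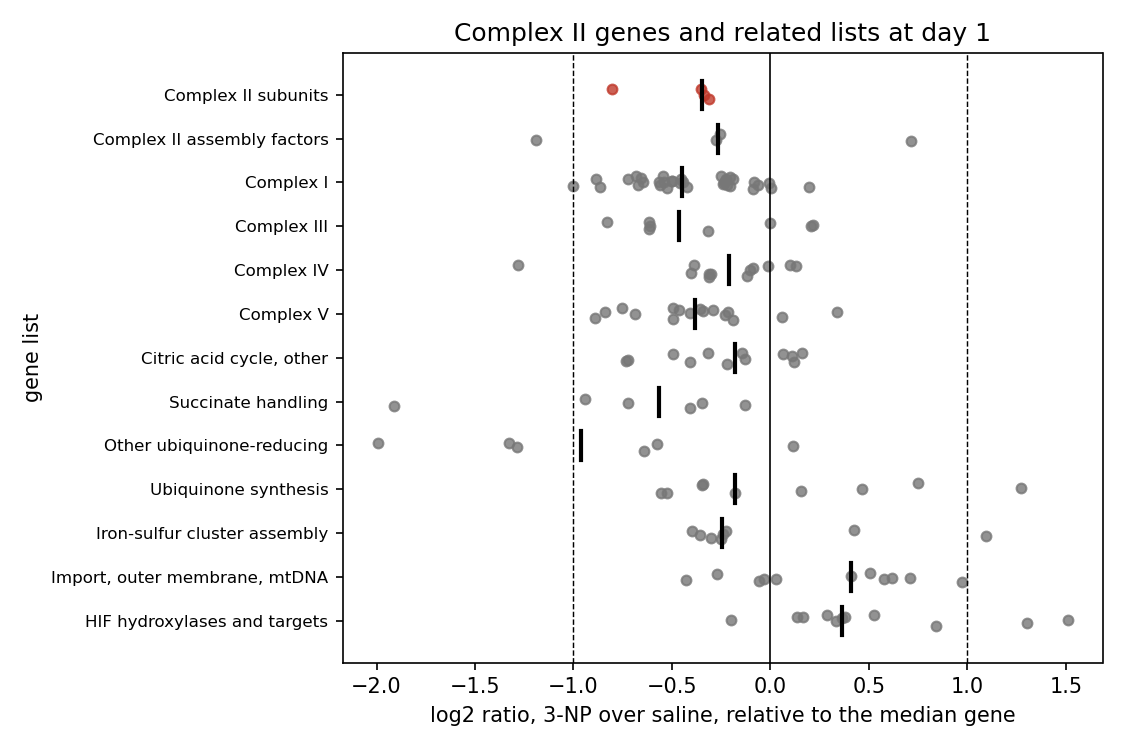
Log2 ratio of 3-NP over saline relative to the median gene at day 1 for measured genes of complex II (red) and related lists (grey), 1 point per gene, with list medians as black bars and dashed lines at 2-fold. The complex II bar at -0.35 lies within the range of the bars of complexes I, III, IV and V, and the bar of the other ubiquinone-reducing dehydrogenases lies further left at -0.96.

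Cofactor supply for the enzyme was also uneven. Iron-sulfur cluster assembly genes, on which Sdhb depends, had a median of -0.25, with 6 of 8 below the median gene. Iscu, the scaffold on which clusters form, was at -0.30 and Nfs1, the sulfur donor enzyme, at -0.24, both close to Sdhb. Fdx2, the ferredoxin of this pathway, was at 1.10. Ubiquinone synthesis and handling genes had a median of -0.18 over 9 genes, which turned to 0.14 with no filter on dim genes, and Coq10b, a ubiquinone-binding protein gene, was 2-fold higher at 1.27, with 409 in the 3-NP array and 125 in the saline array.

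Several lists of cell type markers had medians further from the median gene at day 1 than the Sdh subunits. The 6 spiral ligament fibrocyte markers measured had a summed signal of 4959 in the 3-NP array and 10280 in the saline array, with a median relative log2 ratio of -1.58 and Car3, a carbonic anhydrase gene, lowest at -2.57. All 6 were above the array median in both arrays. The 4 markers of the stria vascularis summed to 983 in 3-NP and 2018 in saline (median -1.47), with the endocytic receptor gene Lrp2 lowest at -1.69, and Kcne1 had 475 in 3-NP and 1006 in saline in a dissection that one label field describes as free of stria. Of the other stria genes on this design, Kcnj10 did not rise above the floor in either array. The 3 macrophage markers measured summed to 983 in 3-NP and 184 in saline, with Lgals3 at 2.47. Cd68 (40.9 in saline) passed the filter through 3-NP alone. Other macrophage genes of the list are on the day 3 design, where Mrc1 was at -1.08 and the dim Cd163 at -1.07. The 6 bone and cartilage markers summed to 612 in 3-NP and 1555 in saline, with Omd at -2.45. Omd (39.4 in 3-NP) and Ibsp, another bone marker (31.2 in 3-NP), passed the filter through saline alone. Of 6 skeletal muscle markers 2 passed the filter, with a sum of 661 in 3-NP and 418 in saline and Mybpc2 at 0.80, while Acta1, Myh4 and Tnnt3 were at the floor in both. Ckm did not pass the filter, with dim signals of 22.6 in 3-NP and 27.2 in saline, and went the other way at -0.71. The medians of the muscle (0.45), erythrocyte (0.63) and neuron and Schwann cell markers (-0.05) lay closer to 0 than Sdhd 1388294_at. The erythrocyte marker Alas2 was at 0.74. The 2 measured neuron and Schwann cell markers went opposite ways, with Sncg at -1.64 and Prph at 1.54. Prph (28.4 in saline) passed the filter through 3-NP alone. In whole tissue, fewer cells of a type and less RNA per cell cannot be told apart, and the part of these shifts in the Sdh ratios was not tested.

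At day 3 no annotated probe set reads the subunits, and few genes of their pathway were measured. The day 3 design covers Aldh5a1 (-1.53, with 33.0 in 3-NP and 89.0 in saline), which was below the median gene on both days, and the succinate and citrate transporter gene Slc13a5 (-0.66). Uqcrc2 of complex III was at -0.51 at day 3 and -0.61 at day 1. Ndufa12 of complex I was at -1.76 at day 3 and -0.45 at day 1, by different probe sets of unlike brightness. Chdh, choline dehydrogenase, which also reduces ubiquinone, went the other way with 713 in the 3-NP array and 204 in the saline array, a relative log2 ratio of 1.71. Over all 3972 genes that passed the filter then, 9.21% had a relative ratio of 2-fold or more upwards and 8.18% downwards.

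Genes that start close to the subunits on the opposite strand were looked up after the subunit values were known. Timm8b, a chaperone gene for mitochondrial import, starts 96 bases from Sdhd. It had 538 in the 3-NP array and 513 in the saline array at day 1, a relative log2 ratio of -0.37, above both Sdhd probe sets and near Sdha and Sdhb. Ccdc127 starts 80 bases from Sdha and is on the day 3 design, where 2 of 3 probe sets passed the filter. The one above the floor in both arrays had 30.7 in 3-NP and 47.2 in saline, a relative log2 ratio of -0.72, and the other, whose 3-NP signal was at the floor, was at -1.85 as a bound.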

How the data were processed

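Gene expression was measured on 4 Affymetrix arrays, 1 per group, from 6 µg of total RNA each, as the labels' protocols state. Each deposited table gives the intensity of every probe set on a linear scale, which the authors computed by MAS5 according to the submitters' processing notes. How the arrays were scaled is not given in the sources. No depth applies to arrays, and their number limits the precision. Probe sets were named through the platform annotation and RefSeq gene identifiers (GRCr8), with 12783 of 15866 holding 1 symbol at day 1 and 7564 of 15276 at day 3. Day and array design coincide, so days were not compared within a treatment.

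From these values log2 ratios of 3-NP over saline were computed in Python 3.11.15 with pandas 2.3.3. A floor was set at the 30th percentile of each array (22.0 in 3-NP and 17.1 in saline at day 1), and a ratio with 1 signal at this floor is a bound. A gene was measured when a probe set reached the 50th percentile in at least 1 array of the pair, and its brightest probe set represents it. The median over measured genes was subtracted (0.44 at day 1, 0.10 at day 3). The ratio of 3' to 5' signal of the Actb controls was 2.53 in 3-NP and 2.69 in saline at day 1, and that of the Gapdh controls 1.46 in 3-NP and 1.34 in saline. No test was run. The steps were tested on simulated data. The members and gene lists were chosen with earlier results of these data known. Named were all Sdh probe sets, each measured gene of the assembly, succinate and ubiquinone-reducing lists, the extremes of each complex and of the citric acid cycle, and the member furthest from 0 of the other lists, all at day 1. Other genes named from the lists, the day 3 genes, Timm8b and Ccdc127 were chosen after their values were seen. Alternatives covered centring, normalization, floor, filter and probe set choice.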

Additional observations from a re-analysis of the deposited data

Results flagged for a closer look

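The Sdh subunits have a value on 1 array design and gave nothing to set beside another day. Of 11 pathway genes measured on both designs, 8 kept their side of the median gene between day 1 and day 3 and 3 had opposite sides. For comparison, 2 probe sets of a gene on one design lay on the same side for 71.5% of genes at day 1 and 66.8% at day 3. Each of the 3 is singled out because its 1 pair of arrays moved one way at day 1 and the other way at day 3, a difference that was not tested and that coincides with the array design. Atp5po, a stalk subunit gene of complex V, was at -0.49 at day 1 and 1.08 at day 3, a difference of 1.57, with a dim day 3 probe set at 31.5 in 3-NP and 13.9 in saline. Fdx2 was at 1.10 at day 1 and -0.47 at day 3, a difference of -1.56, with a dim day 3 probe set at 23.0 in 3-NP and 29.6 in saline. Ndufa7 was at 0.20 at day 1 and -0.26 at day 3, a difference of -0.46. Its day 3 probe set was dim too, at 35.7 in 3-NP and 40.0 in saline. The log2 ratio of one probe set had an SD of 0.35 at day 1 and 0.47 at day 3, so the Ndufa7 difference was within that spread.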

How the results depend on the processing

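No paired analysis was possible because each group has 1 array and the labels give no replicate numbers. For the same reason no array could be left out. Of 40 values of the 5 Sdh probe sets under the alternatives, 35 moved by less than the 0.35 SD between probe sets, and the 5 that moved more are the values as deposited, with no centring: 0.10 for Sdha, 0.085 for Sdhb, 0.13 for Sdhc, -0.019 for Sdhd 1371296_at and -0.37 for Sdhd 1388294_at. The sign changed for 3 of them. Removing the centring adds 0.44 to each value by construction. The other centrings likewise shift all 5 probe sets by 1 constant, and changing the floor alone could hardly move signals this bright. The 40 values are therefore not separate checks.

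As deposited, the list medians at day 1 were 0.094 for the Sdh subunits, 0.17 for the assembly factors, -0.13 for succinate handling, -0.53 for the other ubiquinone-reducing dehydrogenases, 0.26 for ubiquinone synthesis, 0.26 for the citric acid cycle, -0.0086 for complex I, -0.025 for complex III, 0.23 for complex IV, 0.055 for complex V, 0.85 for import and outer membrane genes, 0.51 for biogenesis regulators, 0.19 for iron-sulfur cluster assembly and 0.80 for HIF genes. With the filter in both arrays, the assembly factors were at 0.22 and the ubiquinone-reducing dehydrogenases at -0.57, the same as with no filter on dim genes (-0.57). The other 137 of 154 day 1 medians moved by less than that SD, but ubiquinone synthesis turned to 0.14 with no filter and biogenesis regulators to -0.033 with log2(signal + 32). Biogenesis regulators at day 3 turned from 0.05 to -0.74 with the filter in both arrays to -0.43 with the mean over a gene's probe sets and to -0.010 with log2(signal + 32).

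Counts of all genes moved more. At day 1, genes 2-fold higher and lower numbered 1169 and 171 as deposited, 286 and 216 with log2(signal + 32), and 269 and 247 with the filter in both arrays. Those 1.5-fold higher and lower numbered 2626 and 398 as deposited. At day 3 the 2-fold counts were 224 and 203 with the floor at the 50th percentile, 81 and 71 with log2(signal + 32), and 183 and 165 with the filter in both arrays. The 1.5-fold counts at day 3 were 321 and 333 with log2(signal + 32) and 497 and 518 with the filter in both arrays. The last setting tests fewer genes, and the values as deposited only lack the centring. Adding 32 to each signal or raising the floor shrinks the ratios of dim probe sets by construction. How much of each shift this accounts for was not tested.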

Other observations

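Some mitochondrial genes stood on the other side of the median gene from the Sdh subunits at day 1. Of 11 measured genes for the outer membrane, protein import and mitochondrial DNA upkeep, 4 lay below the median gene and the median was 0.41. It was 0.85 as deposited and 0.10 with no filter on dim genes. Tomm40, the import channel, had 179 in the 3-NP array and 67.1 in the saline array, a relative log2 ratio of 0.97. Tfam, which packages mitochondrial DNA, was at 0.58, and Hspa9, the matrix heat shock protein that pulls proteins in, at 0.71. The 0 genes of this list at least 2-fold higher stand beside 7.76% of all measured genes.

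Succinate is known to inhibit the prolyl hydroxylases that mark HIF for breakdown. A link between succinate and the ratios below was not tested. Of 11 measured HIF pathway genes, 1 lay below the median gene, with a median of 0.37. At least 2-fold higher were 2 of the 11, beside 7.76% of all measured genes: Ldha, lactate dehydrogenase A (1.51), and Adm, adrenomedullin (1.30). Egln1, one of those hydroxylases, was at 0.52, and Hif1a itself at 0.14. At day 3, Ppargc1a, a coactivator of mitochondrial genes, had 122 in the 3-NP array and 249 in the saline array (-1.14) and was at -1.40 by another probe set. On the day 1 design it was at the floor in both arrays, and Gabpb1, a subunit of GABP, was at 0.63. Gabpa, the DNA-binding subunit of GABP, was at -0.75 at day 3. Nrf1 was at 0.86 by its brighter probe set and at a bound of -1.04 by another, at the floor in 3-NP.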
